A study of Rattus norvegicus and Mus musculus with 24 samples.

Results

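Bulk RNA sequencing of kidney from wild-type mice and wild-type rats was compared gene by gene. The comparison used 12 of the 24 libraries of the series, those of the 4 *Ctns* WT mice (animal numbers 1, 2, 4 and 7) and of the 8 *Ctns* WT rats (the odd numbers from 17 to 31), with 1 library per animal. The 12 knockout libraries entered a repeat of the comparison only. The 2 deposited tables list genes by human-style symbols, and 14264 symbols stood once in both, which is 82.1% of the 17376 mouse symbols and 95.5% of the 14931 rat symbols. A minimum of 10 reads in at least 4 of the 12 libraries left 11822 symbols for the test, and 2442 were not tested. Values are given as scaled reads. For each library, 0.5 was added to the reads of a symbol and to the upper quartile (75th percentile) over the shared symbols, and the first was divided by the second. A value of 1 is therefore the level of a gene at the upper quartile of its own library.

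Both groups carried no deleted *Ctns* allele, and no treatment is given in their labels. The methods describe the animals as littermates of the *Ctns* knockout lines, the mice on a C57BL/6 and the rats on a Sprague-Dawley background. The labels name kidney cortex as tissue and proximal tubule cells as cell type, with a protocol for microdissected tubules, whereas the methods name cortex for the sequencing. Age and sex are not given with the samples. The methods state that only female mice were used for primary cultures and mechanistic studies. The study's reporting summary says the same of all its experiments with mice. For the rats, both sexes are named in the rapamycin treatment. In the mouse table, *XIST*, the transcript of the inactive X chromosome, had 17581 to 42003 reads in the 4 wild-type mice, and the Y-linked *DDX3Y*, *KDM5D*, *UTY*, *USP9Y* and *SRY* had 0. These symbols stood in the mouse table only, so the same look was not possible in the rats. The species therefore cannot be told apart from strain, from the separate sequencing and annotation of each table, or from any difference in sex or age.

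The renal cortex is made up mostly of proximal tubules, whose brush border reabsorbs sodium, glucose, phosphate, amino acids and filtered protein, and whose basolateral side takes up organic anions and cations for secretion. Their cells run on fatty acids and other fuels that are burnt in abundant mitochondria and peroxisomes, make glucose and ammonia, and degrade endocytosed protein in lysosomes, where *Ctns* encodes the transporter that exports cystine. Segments S1 and S2 of the proximal tubule lie in the cortex and S3 reaches into the outer medulla, so that any piece of kidney holds its own mixture of segments and of the thick limb, distal nephron, glomeruli, vessels and immune cells. In bulk samples such as these, fewer cells of a type and less RNA per cell cannot be told apart.

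The libraries held 19716951 to 44449859 reads on the mouse table and 25002089 to 40629873 on the rat table, of which 84.8% to 85.3% and 95.3% to 95.9% fell on shared symbols. Spearman's rho over the tested symbols was 0.992 to 0.995 in the 6 pairs of mice, 0.984 to 0.997 in the 28 pairs of rats and 0.768 to 0.792 in the 32 pairs of a mouse with a rat. The rats fell into those numbered 17 to 24 and those numbered 25 to 32, whose values did not overlap for 2484 symbols (21%), and the labels do not say what distinguishes the ranges. Markers outside the proximal tubule were present in both species. *UMOD*, the thick limb glycoprotein uromodulin, was at 91.7 ± 8.02 in the mice and 47.1 ± 7.69 in the rats (mean ± SD), and *CALB1*, the calbindin of the distal nephron, at 11.8 ± 4.2 and 15.9 ± 3.82.

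Each difference below is the rat minus the mouse on the log2 scale of scaled reads, with its standard error, and its adjusted p is that of limma's test against a 2-fold difference, Benjamini-Hochberg adjusted over the 11822 symbols. By this test 1632 symbols (13.8%) were higher in the rat and 1999 (16.9%) higher in the mouse, 3631 in all (30.7%), and 8191 were not called. These shares are the background for every gene group below. Without the 2-fold threshold, limma called 9675 symbols (81.8%), and the values of mice and rats did not overlap for 8140 (68.9%), so that neither of these separates a gene group from the rest. The median difference over all tested symbols was 0.04, its quartiles were -0.85 and 0.72, 6967 symbols (58.9%) lay within 2-fold, and 1477 (12.5%) were over 8-fold apart. The median SD between animals was 0.15 in the mice and 0.18 in the rats. Of the 100 symbols with the highest values in each species, 61 were the same.

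**Figure D1:**
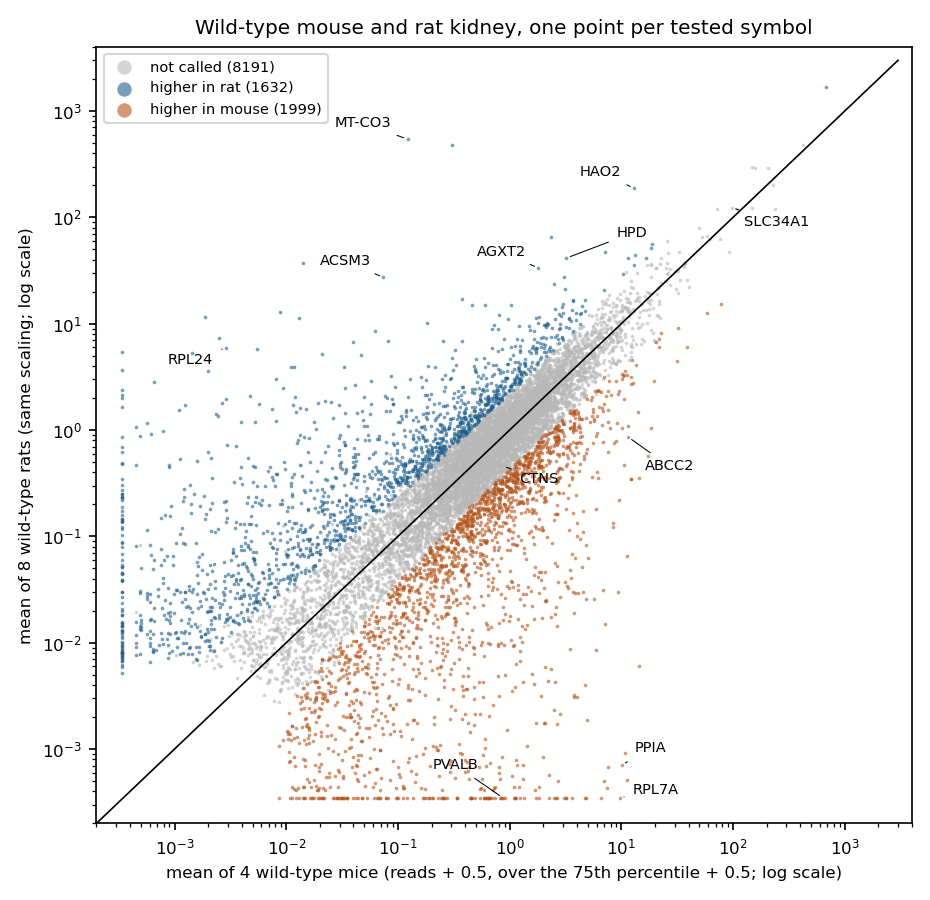
Mean scaled reads of the 4 wild-type mice (x axis, log scale) and of the 8 wild-type rats (y axis, log scale), 1 point for each of the 11822 tested symbols, with equality as a line. Grey points were not called, 1632 blue points were higher in the rat and 1999 orange points higher in the mouse. *SLC34A1* lies near the line, and points along the left and lower edges have no or almost no reads in one species.

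Several genes that define the cortical proximal tubule did not pass the test and overlapped between the species. *SLC34A1*, the main sodium-phosphate cotransporter of the brush border, was at 81.9, 138, 82.9 and 86.9 in the 4 mice and 101 to 141 (median 128) in the rats (log2 difference 0.37 ± 0.14, adjusted p = 1). *SLC5A2*, the S1 glucose cotransporter that gliflozins block, was at 11.2, 18.4, 10.8 and 11.9 in the mice and 11.5 to 15 (median 13.5) in the rats (log2 difference 0.05 ± 0.12, adjusted p = 1). The ranges overlapped for both, and mouse 2 held the highest mouse value of each. *PCK1*, the key enzyme of gluconeogenesis, was at 108 ± 53.2 and 119 ± 39, again with overlap. Of the 14 tested markers of segments 1 and 2, 1 was higher in the mouse and 0 in the rat. That marker was *HNF4A*, the transcription factor that specifies mature proximal tubule cells, at 19.2, 19.3, 23.1 and 19.9 in the mice against 5.24 to 8.63 (median 6.83) in the rats (log2 difference -1.62 ± 0.12, adjusted p = 0.000291), without overlap.

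The S3 markers differed more. Of 15 tested, 7 were higher in the mouse and 1 in the rat, with a median difference of -1.67. With a mean of at least 0.1 in both species, 3 of 8 were higher in the mouse and 0 in the rat, with a median of -0.85. A pseudocount of 1 on the scaled values left 2 and 0, with a median of -0.26. The lean of the S3 list thus depended in part on members that are low in one species. *SLC22A7*, the organic anion transporter OAT2, was at 2.41, 2.16, 2.09 and 3.25 in the mice and 0.0113 to 0.358 (median 0.0707) in the rats (log2 difference -5.27 ± 1.04, adjusted p = 0.0031). *AGT*, the angiotensin precursor, was at 1.49, 0.713, 1.79 and 1.06 in the mice and 0.00398 to 0.191 (median 0.0857) in the rats (log2 difference -4.75 ± 1.05, adjusted p = 0.00767). Every mouse lay above every rat for both genes, and within the rats each split by number range in opposite directions. *SLC22A7* was at 0.119 to 0.358 in rats 17 to 24 and 0.0113 to 0.0224 in rats 25 to 32, *AGT* at 0.00398 to 0.0197 and 0.152 to 0.191. *RNF24*, a membrane ring-finger protein, was at 1.24 ± 0.403 in the mice and 0.00841 ± 0.00371 in the rats. The member higher in the rat was *SLC7A13*, the S3 partner of the cystine carrier subunit rBAT, at 0.0127 ± 0.00232 against 0.8 ± 0.572 (log2 difference 5.63 ± 0.52), where the rat values were not whole reads.

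Among the 25 tested genes of sodium, glucose and phosphate transport, 2 were higher in the rat and 4 in the mouse. *SLC34A3*, the second renal phosphate cotransporter, was at 1.53, 2.5, 1.54 and 1.91 in the mice and 5.62 to 7.75 (median 6.43) in the rats (log2 difference 1.84 ± 0.13, adjusted p = 3.24e-05). *SLC9A3*, the apical sodium-hydrogen exchanger NHE3, was at 1.72, 1.88, 2.09 and 1.89 against 4.18 to 5.6 (median 4.8) (log2 difference 1.34 ± 0.09, adjusted p = 0.0024). All rats exceeded all mice for both transporters. *SLC5A1*, the high-affinity glucose cotransporter of S3, was at 3.58, 2.27, 3.3 and 2.67 in the mice and 0.296 to 0.641 (median 0.412) in the rats (log2 difference -2.79 ± 0.17, adjusted p = 1.75e-07). *SLC4A4*, the basolateral bicarbonate cotransporter that completes acid secretion, was at 25.5, 41.1, 27.7 and 33.2 against 6.48 to 14 (median 8.11) (log2 difference -1.83 ± 0.20, adjusted p = 0.00227). Both stood higher in every mouse than in any rat. The remaining 2 calls were *SLC5A10* and *SLC5A8*, transporters of mannose and fructose and of lactate, at 9.4 ± 5.2 and 2.68 ± 0.576 in the mice against 2.19 ± 1.08 and 0.861 ± 0.274 in the rats. Both calls were lost when certain animals were left out. *SLC5A10* was not called without mouse 1, mouse 4 or rat 19, 25, 27, 29 or 31 (adjusted p = 0.0601 to 0.158 by limma) nor with rats 17 to 24 only (0.453). *SLC5A8* was not called without mouse 1 or 4 (0.0539 and 0.0586) nor with rats 17 to 24 only (0.204). The list then held 2 calls in the mouse's direction without mouse 1, without mouse 4 or with rats 17 to 24 only. *AQP1*, the water channel of proximal tubule and descending limb, was at 16.8 ± 1.5 in the mice and 36 ± 8.26 in the rats (log2 difference 1.07 ± 0.16, adjusted p = 0.873).

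Protein uptake through megalin and cubilin gave 1 call in each direction among 12 tested genes, with a median of 0.51. *CUBN*, which encodes cubilin, was at 18.9, 25, 22.7 and 20.1 in the mice and 9.79 to 24.9 (median 15) in the rats (log2 difference -0.49 ± 0.24, adjusted p = 1), with 17.1 to 24.9 in rats 17 to 24 and 9.79 to 12.8 in rats 25 to 32. The first range overlapped the mice and the second lay below them. *CLCN5*, the endosomal chloride-proton exchanger lost in Dent disease, was higher in the mouse, at 2.62, 3.3, 2.95 and 3.11 against 0.49 to 1.07 (median 0.68) (log2 difference -2.12 ± 0.15, adjusted p = 1.1e-05). *EHD1*, an endosomal recycling protein, was higher in the rat, at 2.72 ± 0.416 against 7.22 ± 1.02, and this call was lost with rats 17 to 24 only (adjusted p = 0.0724 by limma). *LRP2*, which encodes megalin, stood in the mouse table only, with a mean of 136320 reads, and could not be compared.

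Amino acid and peptide carriers gave 4 calls in the rat's direction and 3 in the mouse's, of 24. Without mouse 2 the latter became 5. *SLC15A1*, the low-affinity peptide transporter PEPT1, was at 0.0627, 0.045, 0.0568 and 0.0322 in the mice and 1.12 to 1.4 (median 1.26) in the rats (log2 difference 4.71 ± 0.14, adjusted p = 2.44e-12), a 26.2-fold difference with every rat above every mouse. *SLC3A1*, the rBAT subunit of the cystine and dibasic amino acid carrier, was at 15.7, 15.3, 16.1 and 19.1 in the mice and 31.5 to 48.6 (median 43.1) in the rats (log2 difference 1.32 ± 0.11, adjusted p = 0.0179). Its groups did not overlap, but the call was lost without mouse 1 (adjusted p = 0.0527 by limma), without mouse 2 (0.0589) and with rats 17 to 24 only (0.113). *SLC7A9*, the catalytic partner of rBAT, was at 4.79 ± 1.35 and 6.2 ± 0.645, within 2-fold. *SLC6A6*, the taurine transporter, was higher in the mouse, at 10.01, 13.2, 10.4 and 12.3 against 0.876 to 1.37 (median 1.06) (log2 difference -3.41 ± 0.13, adjusted p = 1.51e-10). *SLC36A1*, a lysosomal and plasma membrane proton-amino acid carrier, was at 2.63 ± 0.209 in the mice and 0.333 ± 0.0556 in the rats (log2 difference -2.99 ± 0.11, adjusted p = 3.97e-10). *SLC6A19*, the neutral amino acid carrier of the brush border, was at 8.32, 22.6, 12 and 16.9 in the mice and 5.39 to 7.74 (median 6.23) in the rats (log2 difference -1.14 ± 0.20, adjusted p = 0.664), without overlap and without a call.

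Transporters of organic anions and cations were called higher in the mouse for 7 of 23 and higher in the rat for 1, with a median of -0.83. With rats 17 to 24 only, 10 were higher in the mouse (median -0.83), and with rats 25 to 32 only, 6 (median -0.34). With a mean of at least 0.1 in both species, 4 of 20 were higher in the mouse and 1 in the rat, with a median of -0.65. A pseudocount of 1 on the scaled values left 3 and 0, with a median of -0.30. *ABCC2*, the apical efflux pump MRP2 for conjugates, was at 11.3, 10.7, 13.5 and 10.5 in the mice and 0.624 to 1.14 (median 0.866) in the rats (log2 difference -3.76 ± 0.14, adjusted p = 1.01e-10). *SLC22A3*, the cation transporter OCT3, was at 0.0545 ± 0.013 in the mice and 0.00583 ± 0.00359 in the rats (log2 difference -3.40 ± 0.40, adjusted p = 7.88e-05). Neither overlapped between species. The basolateral entry carriers OAT1, OAT3 and OCT2 did not pass the test. *SLC22A6*, the para-aminohippurate transporter OAT1, was at 13.9 ± 4.69 and 30.01 ± 12.7 (log2 difference 1.05 ± 0.33, adjusted p = 1), *SLC22A8*, OAT3, at 20.5 ± 5.36 and 33.4 ± 7.15 (log2 difference 0.71 ± 0.18, adjusted p = 1), and *SLC22A2*, the cation transporter OCT2, at 4.2 ± 0.628 and 4.38 ± 1.1 (log2 difference 0.02 ± 0.20, adjusted p = 1). *SLC22A5*, the carnitine transporter, was the member higher in the rat (log2 difference 1.68 ± 0.19, adjusted p = 0.00483), with values that were not whole reads.

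In the brush border, 4 of 19 enzymes and structural proteins were higher in the rat and 2 in the mouse, although the median was -0.47. *XPNPEP2*, the membrane aminopeptidase P, was at 0.264, 0.548, 0.265 and 0.416 in the mice and 6.29 to 7.44 (median 6.79) in the rats (log2 difference 4.26 ± 0.16, adjusted p = 6.42e-11). *ANPEP*, aminopeptidase N, was at 3.74, 3.6, 4.02 and 3.45 against 10.5 to 22.5 (median 16.4) (log2 difference 2.09 ± 0.18, adjusted p = 5.91e-05). *DPP4*, the dipeptidyl peptidase that inactivates incretins, was at 2.65, 3.01, 2.63 and 3.09 against 8.07 to 10.8 (median 8.82) (log2 difference 1.66 ± 0.09, adjusted p = 6.35e-06). For these 3 peptidases every rat exceeded every mouse. The metalloprotease *MEP1A*, the meprin alpha subunit, went the other way, at 23, 21.6, 20.4 and 25.7 in the mice and 6.67 to 10.8 (median 7.81) in the rats (log2 difference -1.49 ± 0.12, adjusted p = 0.00175), likewise without overlap. *NAALADL1*, another peptidase, was at 0.0555 ± 0.0281 in the mice and had 0 to 4 reads per library in the rats.

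**Figure D2:**
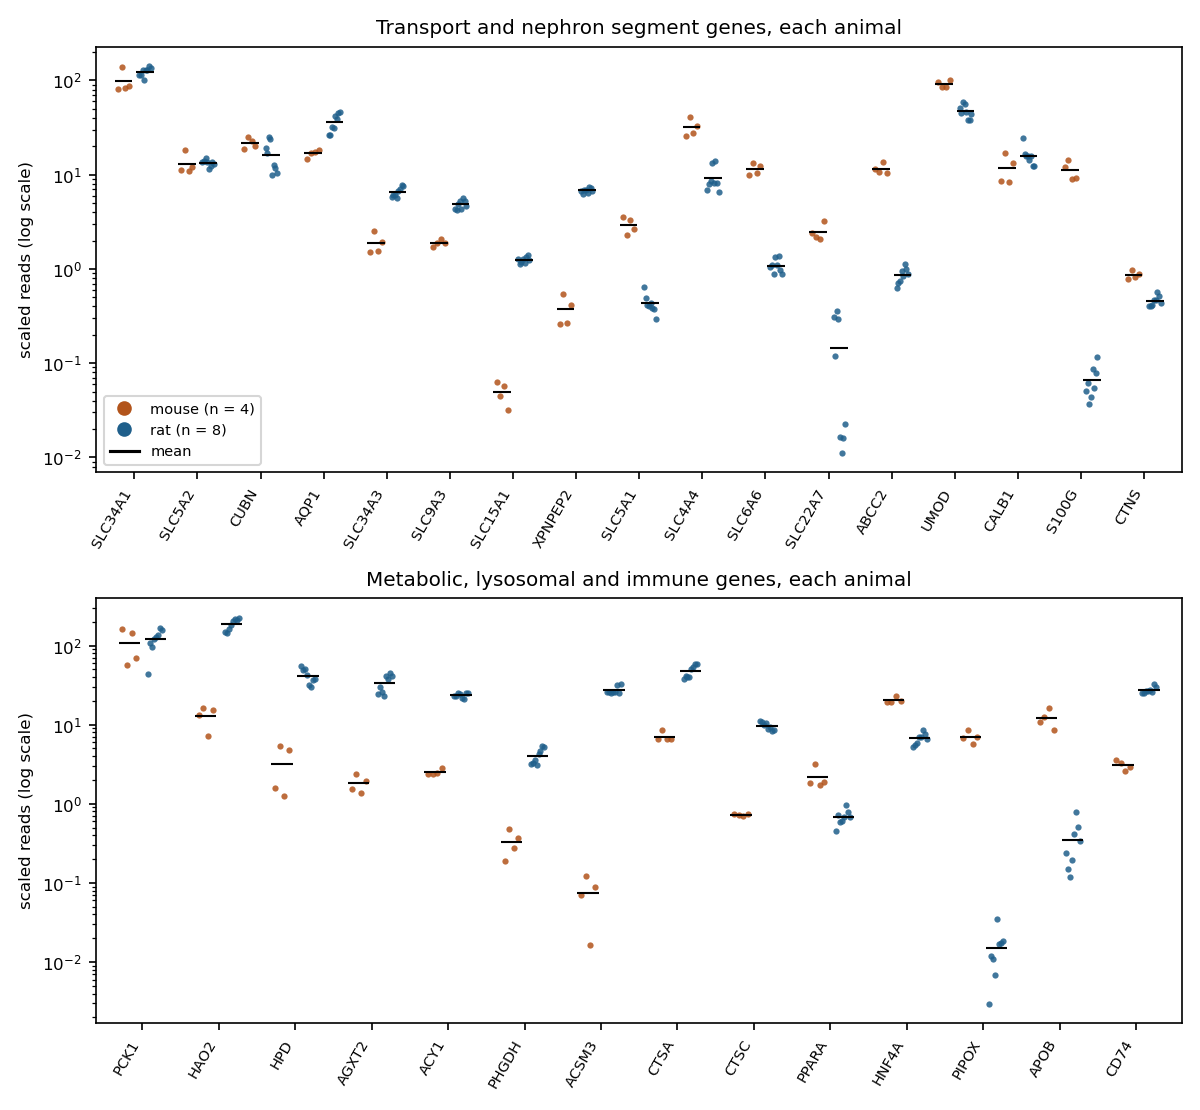
Scaled reads (y axes, log scale) of transport and segment genes (upper panel) and of metabolic, lysosomal and immune genes (lower panel), 1 point per animal for 4 mice (orange) and 8 rats (blue), with the group mean as a bar. *SLC34A1*, *SLC5A2* and *PCK1* overlap, while *SLC15A1*, *XPNPEP2*, *ACSM3* and *CTSC* stand higher in every rat and *S100G*, *ABCC2*, *PIPOX* and *APOB* higher in every mouse. The rats split into a high and a low set for *SLC22A7* and *CUBN*.

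Beyond the proximal tubule, no thick limb marker was called among 14 by limma against a 2-fold difference, with a median of -0.53, although *UMOD* did not overlap, at 96.5, 84.9, 84.9 and 100.4 in the mice and 38 to 58.5 (median 45.5) in the rats (log2 difference -0.97 ± 0.12, adjusted p = 1). Without the 2-fold threshold its adjusted p was 3.17e-06 by limma. Calcium-binding proteins accounted for the 2 calls among 14 distal convoluted and connecting tubule genes, both higher in the mouse. *S100G*, calbindin-D9k, was at 12.1, 14.4, 9.01 and 9.24 in the mice and 0.037 to 0.116 (median 0.0576) in the rats (log2 difference -7.47 ± 0.26, adjusted p = 2.08e-11), 178-fold apart and without overlap. *PVALB*, parvalbumin, a marker of the early distal convoluted tubule, was at 1.09, 1.01, 0.555 and 0.838 in the mice and was listed at 0 reads in every rat. *CALB1*, which shares the calcium-binding role in the same segments, did not pass the test (log2 difference 0.47 ± 0.20, adjusted p = 1).

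Collecting duct genes were called higher in the rat for 4 of 18 and in the mouse for 0 by limma. The latter became 1 without mouse 2, rat 17 or rat 23. *SLC4A1*, the anion exchanger AE1 of acid-secreting intercalated cells and of erythrocytes, was at 1.56, 1.73, 1.42 and 1.72 in the mice and 4.42 to 8.08 (median 5.91) in the rats (log2 difference 1.91 ± 0.14, adjusted p = 3.83e-05). *HMX2*, a homeobox factor, was at 0.215 ± 0.0348 and 0.85 ± 0.195 (log2 difference 1.97 ± 0.17, adjusted p = 0.000111), and *ST6GAL1*, a sialyltransferase, at 0.616 ± 0.0691 and 2.58 ± 0.234 (log2 difference 2.07 ± 0.08, adjusted p = 1.55e-08). Among 17 podocyte and glomerular genes, *PTPRO*, a receptor phosphatase of podocyte foot processes, was higher in the rat, at 0.798, 0.992, 0.728 and 0.873 against 2.03 to 3.78 (median 2.78) (log2 difference 1.73 ± 0.18, adjusted p = 0.0022). *COL4A3* and *COL4A4*, chains of the mature basement membrane collagen, were higher in the mouse, with *COL4A4* at 7.36 ± 0.465 against 2.11 ± 0.489 (log2 difference -1.84 ± 0.16, adjusted p = 0.000321) and values of *COL4A3* that were not whole reads. With rats 25 to 32 only, 5 members of this list were higher in the mouse. For *NPHS1*, nephrin, the means were 1.68 ± 0.141 and 3.25 ± 0.876.

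Vessel, stroma and immune markers also differed in part. *VWF*, the endothelial von Willebrand factor, was at 0.0914, 0.0864, 0.0959 and 0.0881 in the mice and 1.12 to 2.55 (median 1.72) in the rats (log2 difference 4.23 ± 0.16, adjusted p = 9.95e-11), the single call in the rat's direction among 19 endothelial genes, against 1 in the mouse's (2 without rat 19). *CDH5*, the pan-endothelial cadherin, was at 0.935 ± 0.0413 and 0.417 ± 0.0503. In the fibroblast, pericyte and matrix list, 4 of 19 were higher in the rat and 3 in the mouse. *SPARC*, a matrix-binding glycoprotein, was at 3.2 ± 0.326 and 9.32 ± 0.455 (log2 difference 1.55 ± 0.07, adjusted p = 3.9e-06), *THY1*, a fibroblast surface protein, at 0.0696 ± 0.0182 and 0.313 ± 0.0532 (log2 difference 2.19 ± 0.16, adjusted p = 1.03e-05), and *RGS5*, a pericyte signalling regulator, at 1.74 ± 0.27 and 0.222 ± 0.0454 (log2 difference -2.99 ± 0.16, adjusted p = 3.89e-08). The summed value of the 18 tested macrophage and myeloid markers was 6.42 to 7.47 in the mice and 29.7 to 39.7 in the rats. Of these, 3 were called higher in the rat and 1 in the mouse, against the 13.8% and 16.9% of all symbols. The member with the most reads in both species was *CD74*, the invariant chain of class II antigen presentation, at 3.54, 3.32, 2.61 and 2.88 in the mice and 24.9 to 32.9 (median 27) in the rats (log2 difference 3.16 ± 0.10, adjusted p = 2.16e-11), with no overlap. The summed value of the list in the rats, with a median of 31.4, was therefore mostly *CD74*. *AIF1*, a macrophage actin-binding protein, was at 0.0421 ± 0.00599 and 0.382 ± 0.085 (log2 difference 3.16 ± 0.17, adjusted p = 1.52e-08), and *FCER1G*, an immune receptor signalling chain, at 0.127 ± 0.0114 and 0.539 ± 0.137 (log2 difference 2.05 ± 0.17, adjusted p = 5.73e-05). *LYZ*, lysozyme, was the member higher in the mouse, at 0.251 ± 0.0326 against 0.00684 ± 0.00191 (log2 difference -5.24 ± 0.24, adjusted p = 3.57e-10), with values that were not whole reads. In the lymphocyte list *CD4*, the T-helper coreceptor, which rat macrophages also carry, was at 0.0255 ± 0.00537 and 0.436 ± 0.106 (log2 difference 4.08 ± 0.19, adjusted p = 1.35e-09). Of the 15 lymphocyte markers, 1 was higher in the rat and 2 in the mouse.

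Complement held calls in the rat's direction for 7 of 19, against the 13.8% of all symbols, with 2 in the mouse's direction (1 without mouse 4 or mouse 7) and a median of 0.77. Most of these calls were of symbols whose values were not whole reads, and among the 13 members with whole reads 2 were higher in the rat and 1 in the mouse, with a median of -0.01. *C5*, the precursor of the anaphylatoxin C5a, was listed at 0 reads in every mouse and stood at 2.74 to 4.77 (median 3.7) in the rats. *C5AR1*, its receptor, was at 0.0132 ± 0.00359 in the mice and 0.0749 ± 0.0118 in the rats (log2 difference 2.54 ± 0.19, adjusted p = 4.04e-06). The cell surface regulators *CD59*, *CD46* and *CD55* were higher in the rat by 4.09, 3.93 and 1.99 on the log2 scale, with values that were not whole reads for all 3. *HLA-DRA*, the symbol for a class II alpha chain, was listed at 0 reads in every mouse and stood at 4.59 to 6.57 (median 5.49) in the rats.

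Amino acid metabolism gave 9 calls in the rat's direction and 4 in the mouse's (2 without mouse 2 or mouse 7) among 36 genes, with a median of 0.75. *HAO2*, the peroxisomal long-chain hydroxyacid oxidase, was at 13.2, 16.1, 7.1 and 15.5 in the mice and 146 to 224 (median 193) in the rats (log2 difference 3.90 ± 0.20, adjusted p = 3.89e-09), a 15-fold difference. *HPD*, which opens the homogentisate route of tyrosine breakdown, was at 1.58, 5.34, 1.24 and 4.74 against 29.7 to 55 (median 39.7) (log2 difference 3.93 ± 0.35, adjusted p = 4.55e-06). *AGXT2*, a mitochondrial aminotransferase that clears dimethylarginines, was at 1.53, 2.38, 1.36 and 1.96 against 23.1 to 44.7 (median 33.9) (log2 difference 4.20 ± 0.20, adjusted p = 1.73e-09). Every rat lay above every mouse for these 3 enzymes, and the mice spread over a wider range for *HPD*, with mice 2 and 7 high and mice 1 and 4 low, than for *AGXT2*. *PHGDH* and *PSAT1*, the first 2 enzymes of serine synthesis, were at 0.329 ± 0.125 and 0.7 ± 0.169 in the mice and 4.07 ± 0.936 and 5.96 ± 0.873 in the rats (3.68 ± 0.23 and 3.11 ± 0.14 on the log2 scale). *ACY1*, which frees amino acids from their N-acetyl forms, was at 2.37, 2.39, 2.44 and 2.87 against 21.3 to 25.5 (median 24) (log2 difference 3.23 ± 0.08, adjusted p = 7.27e-13). In the opposite direction stood *PRODH*, the first enzyme of proline oxidation, at 6.37 ± 1.82 against 1.65 ± 0.301 (log2 difference -1.92 ± 0.17, adjusted p = 0.000248), and *SARDH*, sarcosine dehydrogenase, at 12.8 ± 1.62 against 2.78 ± 0.168 (log2 difference -2.19 ± 0.08, adjusted p = 2e-09).

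Fatty acid and peroxisomal enzymes were called more often in the mouse's direction, 8 of 34 and 9 of 29, against 16.9% of all symbols. In the rat's direction 3 and 3 were called, against 13.8%. With a mean of at least 0.1 in both species, 3 of 28 fatty acid members were higher in the mouse and 2 in the rat. A pseudocount of 0.1 left 8 and 3, and a pseudocount of 1 left 1 and 2. The lean of the fatty acid list thus depended on members that are low in one species. The peroxisomal list held 7 and 2 of 27 with that mean, and 7 and 2 with a pseudocount of 1. *PPARA*, the nuclear receptor that controls fatty acid oxidation, was at 1.82, 3.19, 1.73 and 1.89 against 0.447 to 0.961 (median 0.681) (log2 difference -1.64 ± 0.19, adjusted p = 0.0077) without overlap, and was not called with rats 25 to 32 only (adjusted p = 0.0626 by limma). *FABP1*, the liver-type fatty acid binding protein, was at 0.42 ± 0.362 in the mice and 0.00174 ± 0.000846 in the rats (log2 difference -7.53 ± 0.63, adjusted p = 2.41e-07). *FABP4*, the adipocyte and capillary form, was at 0.993 ± 0.61 and 0.033 ± 0.0158 (log2 difference -4.95 ± 0.46, adjusted p = 3.02e-06), whereas *FABP3*, the heart form, was higher in the rat at 1.71 ± 0.256 against 5.27 ± 0.57 (log2 difference 1.62 ± 0.10, adjusted p = 5.08e-05). *ACSM3*, a medium-chain acyl-CoA synthetase, was at 0.0705, 0.121, 0.0164 and 0.089 in the mice and 24.9 to 32.3 (median 26.1) in the rats (log2 difference 8.84 ± 0.39, adjusted p = 7.63e-10), 457-fold apart. *CPT1A*, the gate of mitochondrial fatty acid entry, was at 12.4 ± 3.07 and 6.06 ± 1.35, and *ACADM*, medium-chain acyl-CoA dehydrogenase, at 21.4 ± 4.42 and 11.9 ± 2.56, and neither was called.

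Within the peroxisome, *PIPOX*, which oxidises pipecolate and sarcosine, was at 6.87, 8.64, 5.76 and 7.04 in the mice and 0.00295 to 0.0347 (median 0.0145) in the rats (log2 difference -9.16 ± 0.49, adjusted p = 2.77e-09). *ACOX2*, the oxidase for branched chains and bile acid intermediates, was at 2.67, 1.83, 3.12 and 3.09 against 0.1 to 0.246 (median 0.142) (log2 difference -4.09 ± 0.26, adjusted p = 9.63e-08). *EPHX2*, soluble epoxide hydrolase, was at 5.71, 5.59, 5.65 and 4.72 against 0.294 to 0.466 (median 0.348) (log2 difference -3.92 ± 0.12, adjusted p = 7.33e-12). Mice exceeded rats for all 3 without overlap. *CAT*, catalase, was at 25.2 ± 3.12 and 25.4 ± 7.01 with overlap. *AMACR*, a racemase of branched-chain acyl-CoAs, was higher in the rat at 2.33 ± 0.0718 against 7.42 ± 1.12 (log2 difference 1.66 ± 0.10, adjusted p = 3.47e-05).

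The conjugation enzymes held 11 calls in the rat's direction and 4 in the mouse's among 25, with a median of 1.34. With a mean of at least 0.1 in both species, 5 of 16 were higher in the rat and 1 in the mouse, with a median of 1.23. A pseudocount of 1 on the scaled values left 4 and 3, with a median of 0.46. *FMO2*, the lung form of flavin monooxygenase, was higher in the mouse, at 8.52, 13.5, 8.34 and 11.7 against 1.8 to 2.17 (median 1.96) (log2 difference -2.38 ± 0.12, adjusted p = 3.8e-08). *SULT1B1*, a sulfotransferase of thyroid hormones and phenols, was at 0.0576 ± 0.0141 and 1.77 ± 0.298 (log2 difference 4.96 ± 0.15, adjusted p = 3.58e-12), and *SULT2B1*, which sulfates sterols, at 0.0114 ± 0.00604 and 0.361 ± 0.0412 (log2 difference 5.17 ± 0.27, adjusted p = 2.5e-09). *UGT1A6*, a glucuronosyltransferase, was also called higher in the rat (log2 difference 6.43 ± 0.17, adjusted p = 4.02e-13), with values that were not whole reads. *GSTM3*, a mu-class glutathione transferase, was at 2.64, 2.46, 2.62 and 2.64 in the mice and was listed at 0 reads in every rat, while *GSTM2* was higher in the rat at 0.259 ± 0.041 against 1.02 ± 0.112 (log2 difference 1.98 ± 0.10, adjusted p = 5.43e-07). Members of such families stand under human symbols here, and how each rodent gene was given its symbol is not stated in the sources used.

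Cytochrome P450 genes were divided, 5 higher in the rat and 6 in the mouse of 23. *CYP2E1*, the ethanol-inducible form, was at 2.28, 4.21, 2.05 and 3.46 in the mice and 12.4 to 20.5 (median 14.8) in the rats (log2 difference 2.40 ± 0.18, adjusted p = 6.35e-06). *CYP11A1*, the side-chain cleavage enzyme of steroid synthesis, was listed at 0 reads in every mouse and stood at 0.12 to 0.289 (median 0.17) in the rats. *CYP1B1*, an oestrogen and polycyclic hydrocarbon hydroxylase, was at 0.593, 0.553, 0.634 and 0.606 in the mice and 0.000306 to 0.00344 (median 0.00104) in the rats (log2 difference -9.28 ± 0.52, adjusted p = 1.28e-09). *CYP2R1*, a vitamin D 25-hydroxylase, was at 0.0343 ± 0.00677 and 0.245 ± 0.0543 (log2 difference 2.83 ± 0.17, adjusted p = 1.75e-07). The renal vitamin D enzymes were not called, with *CYP27B1*, which makes calcitriol, at 0.197 ± 0.14 and 0.0787 ± 0.0406 (log2 difference -1.30 ± 0.49, adjusted p = 0.722) and *CYP24A1*, which degrades it, at 1.38 ± 1.01 and 3.42 ± 2.12 (log2 difference 1.53 ± 0.73, adjusted p = 0.641).

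Lipid carriers and lipid synthesis leaned to the mouse, with 10 of 25 higher in the mouse, 3 in the rat and a median of -1.09. *APOB*, the structural protein of very low density lipoprotein, was at 10.7, 12.6, 16.4 and 8.62 in the mice and 0.117 to 0.783 (median 0.289) in the rats (log2 difference -5.35 ± 0.45, adjusted p = 1.81e-06). *MTTP*, which loads lipid onto it, was at 1.25, 0.841, 0.985 and 0.717 against 0.0209 to 0.0488 (median 0.0345) (log2 difference -4.82 ± 0.24, adjusted p = 1.2e-09). *LPL*, lipoprotein lipase, was at 7.85, 8.2, 9.94 and 10.2 against 0.848 to 1.42 (median 1.16) (log2 difference -2.98 ± 0.14, adjusted p = 5.88e-09). Mice stood above rats for these 3 without overlap. *APOM*, the carrier of sphingosine 1-phosphate, was higher in the rat, at 2.17, 2.31, 1.69 and 1.96 against 8.08 to 11.9 (median 9.65) (log2 difference 2.27 ± 0.11, adjusted p = 7.08e-08). *ELOVL6* and *SCD*, which elongate and desaturate fatty acids, were higher in the mouse by 421-fold and 89.1-fold, with values that were not whole reads. *ABCG1*, a cholesterol exporter, was higher in the rat (log2 difference 1.83 ± 0.09, adjusted p = 7.53e-07).

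The lists of glucose enzymes and of nuclear respiratory chain genes held few calls, although other nuclear energy genes, *UQCRH*, *NDUFA3* and *IDH3G*, stood among the largest differences described further on. Of 21 gluconeogenesis, ammoniagenesis and carbonic anhydrase genes, 2 were higher in the mouse and 0 in the rat, namely *FBP2*, the muscle form of fructose bisphosphatase, at 0.961 ± 0.0612 against 0.092 ± 0.0197 (log2 difference -3.41 ± 0.14, adjusted p = 6.68e-10), and *CA3*, a carbonic anhydrase of muscle and fat, at 0.834 ± 0.361 against 0.01 ± 0.00473 (log2 difference -6.44 ± 0.45, adjusted p = 3.77e-08). *FBP1*, the form of kidney and liver, was at 27.1 ± 3.01 and 32.7 ± 6.37. Among 31 nuclear genes of the respiratory chain, 1 was called in the mouse's direction and 0 in the rat's, against 16.9% and 13.8% of all symbols, and the median was 0.38. The antioxidant list held 6 calls in the mouse's direction and 2 in the rat's among 29. The latter became 1 without mouse 2, 4 or 7 or without rat 21, 23, 25, 27, 29 or 31. *SRXN1*, sulfiredoxin, was at 2.12, 1.97, 2.27 and 1.9 in the mice and 0.0338 to 0.0572 (median 0.0461) in the rats (log2 difference -5.51 ± 0.12, adjusted p = 6.33e-14). *NQO1*, the quinone reductase, was at 1.45, 0.803, 1.6 and 1.03 against 0.165 to 0.276 (median 0.214) (log2 difference -2.46 ± 0.18, adjusted p = 3.38e-06), and both were higher in every mouse.

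**Figure D3:**
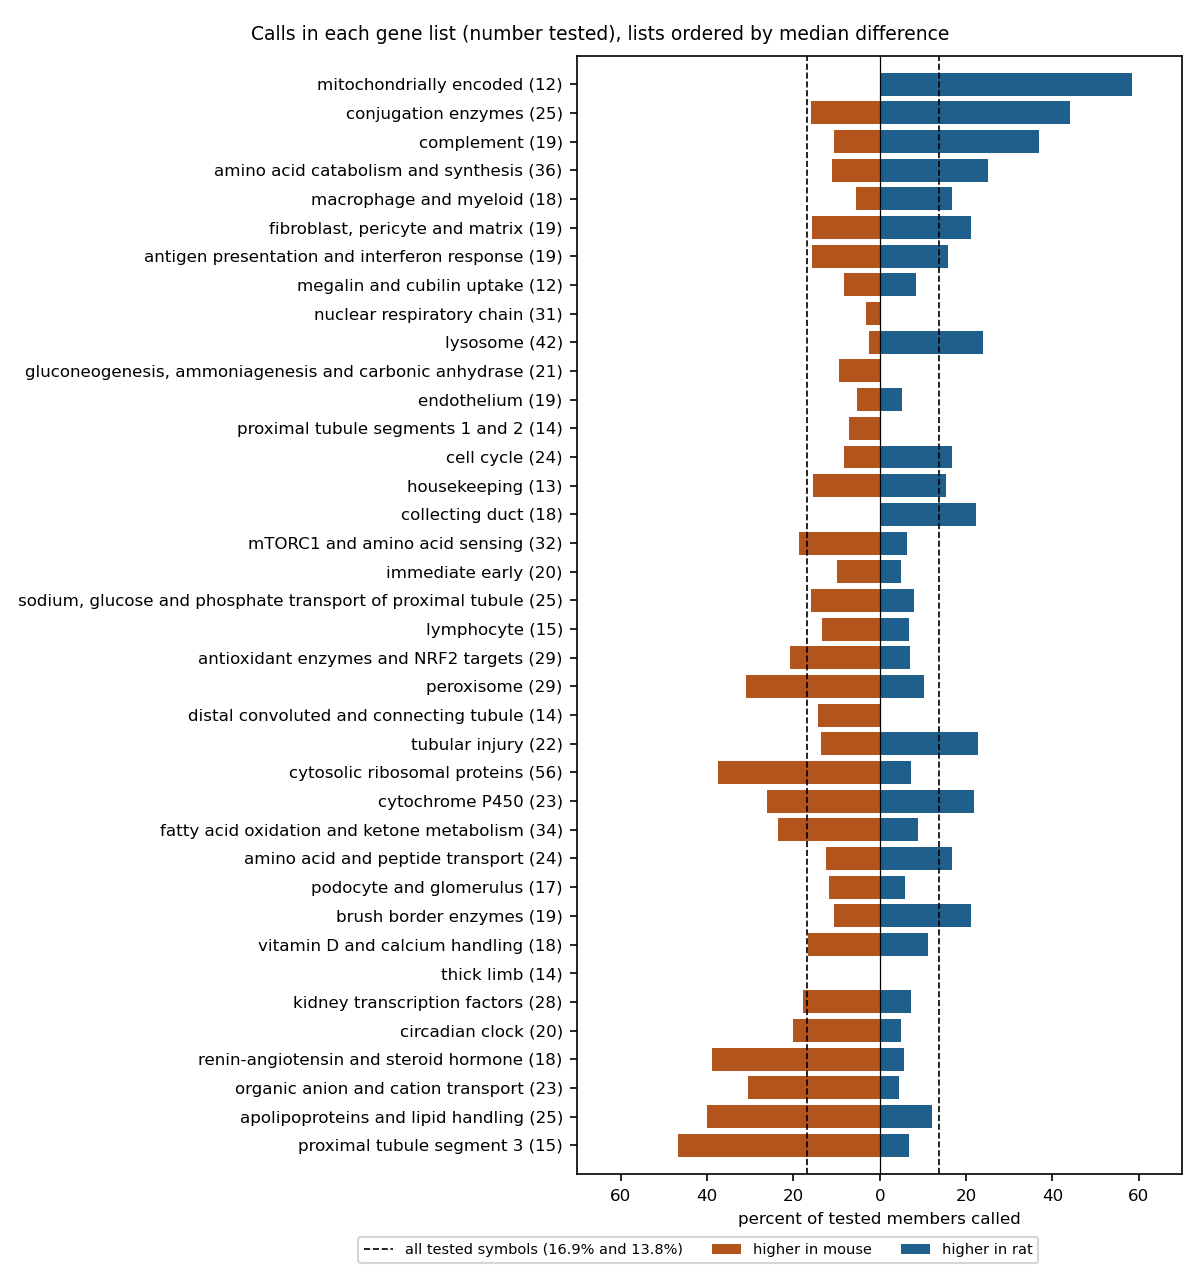
Percent of tested members called higher in the rat (blue, to the right) and higher in the mouse (orange, to the left) for 38 gene lists, with the number tested in brackets and the lists ordered by their median difference. Dashed lines mark 13.8% and 16.9%, the shares over all 11822 symbols. The mitochondrially encoded, conjugation and complement lists reach farthest to the right, and the S3, apolipoprotein and renin-angiotensin lists farthest to the left.

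The lysosome, the compartment in which *CTNS* acts, had 10 of 42 genes higher in the rat and 1 higher in the mouse, with a median of 0.28. *CTSC*, cathepsin C, which activates serine proteases, was at 0.751, 0.725, 0.696 and 0.746 in the mice and 8.27 to 11 (median 9.54) in the rats (log2 difference 3.72 ± 0.08, adjusted p = 2.41e-13). *HEXA*, the alpha subunit of beta-hexosaminidase, was at 1.09, 1.37, 1.13 and 1.28 against 7.82 to 11 (median 9.46) (log2 difference 2.95 ± 0.10, adjusted p = 1.04e-10). *CTSA*, the protective protein of the sialidase complex, was at 6.62, 8.48, 6.64 and 6.57 against 37.9 to 59.3 (median 45.3) (log2 difference 2.73 ± 0.14, adjusted p = 1.98e-08). All rats lay above all mice for these hydrolases, by 13.1-fold, 7.75-fold and 6.63-fold. *GLA*, alpha-galactosidase, followed at 0.168, 0.15, 0.157 and 0.183 against 0.953 to 1.24 (median 1.04) (log2 difference 2.70 ± 0.08, adjusted p = 4.25e-11). *CTSZ*, cathepsin Z, was the member higher in the mouse, at 3.87, 3.52, 3.69 and 3.06 against 0.314 to 0.499 (median 0.426) (log2 difference -3.13 ± 0.12, adjusted p = 3.75e-10). Structural and pump components were within 2-fold, with *LAMP1*, the main membrane glycoprotein, at 25.6 ± 1.75 and 37.2 ± 3.75 and *ATP6V1A*, a catalytic subunit of the proton pump, at 14.7 ± 1.38 and 9.39 ± 0.604. When single animals were left out, 8 to 10 members remained called higher in the rat.

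*CTNS* itself was at 0.778, 0.968, 0.821 and 0.886 in the mice and 0.402 to 0.563 (median 0.452) in the rats, and it did not pass the test against a 2-fold difference (log2 difference -0.91 ± 0.10, adjusted p = 1). Every mouse lay above every rat, and without the 2-fold threshold the adjusted p was 4.26e-07 by limma, a pattern shared by most tested symbols. Among 32 genes of mTORC1 and amino acid sensing, 6 were higher in the mouse and 2 in the rat (1 without mouse 4). Of the 29 with whole reads, 4 were higher in the mouse and 2 in the rat. *DEPTOR*, an inhibitory component of the kinase complex, was at 3.9, 3.97, 3.48 and 3.53 in the mice and 0.333 to 0.626 (median 0.508) in the rats (log2 difference -2.91 ± 0.14, adjusted p = 8.59e-09). *RRAGD*, a Rag GTPase of the lysosomal surface, was at 2.46, 2.41, 2.8 and 2.71 against 0.61 to 1.03 (median 0.778) (log2 difference -1.76 ± 0.12, adjusted p = 3.83e-05). *CASTOR1*, the arginine sensor, was at 0.185, 0.175, 0.175 and 0.188 against 1.17 to 2.06 (median 1.67) (log2 difference 3.17 ± 0.13, adjusted p = 8.1e-10). Mice exceeded rats for the first 2 and rats exceeded mice for *CASTOR1*, without overlap. *MTOR*, the kinase, was at 4.0 ± 0.319 and 2.52 ± 0.315, and *RPTOR*, its scaffold, at 0.973 ± 0.079 and 1.04 ± 0.0455, and neither was called. A list drawn up here around the study's work on *Ctns* had 23 tested genes, of which 4 were higher in the rat and 1 in the mouse. The latter was *RPS6*, which encodes ribosomal protein S6, with values that were not whole reads. Some members of the list, such as *TFEB*, *LAMTOR1* and *TJP1*, are not named in the study's main text. With rats 17 to 24 only, 1 was higher in the rat, and *SLC3A1*, *CDC20*, an activator of mitotic protein breakdown, and *FOXM1*, a proliferation factor, were not called (adjusted p = 0.113, 0.0872 and 0.0563 by limma).

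Hormone and signalling genes leaned to the mouse, with 7 of 18 in the renin-angiotensin and steroid list against 1 in the rat's direction (3 with rats 17 to 24 only). *GHR*, the growth hormone receptor, was at 9.21, 8.38, 10.5 and 12.1 in the mice and 2.62 to 3.96 (median 3.53) in the rats (log2 difference -1.59 ± 0.12, adjusted p = 0.000643). *INSR*, the insulin receptor, was at 3.37, 3.65, 3.33 and 3.48 against 0.892 to 1.31 (median 0.987) (log2 difference -1.73 ± 0.09, adjusted p = 4.08e-06). *IGF1R*, the related growth factor receptor, was at 1.38, 1.96, 1.82 and 2.09 against 0.451 to 0.683 (median 0.509) (log2 difference -1.77 ± 0.13, adjusted p = 7.13e-05). Mice exceeded rats in each case. *HSD11B1*, which regenerates active glucocorticoid, was the member higher in the rat, at 0.723, 0.864, 0.733 and 0.844 against 5.35 to 12.4 (median 9.36) (log2 difference 3.45 ± 0.22, adjusted p = 1.68e-07). Among 18 vitamin D and calcium genes, 3 were higher in the mouse and 2 in the rat, among them *CALCR*, the calcitonin receptor, at 0.0217 ± 0.00752 against 0.162 ± 0.0256 (log2 difference 2.95 ± 0.19, adjusted p = 2.5e-07).

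Of 28 kidney transcription factors, 5 were higher in the mouse, close to the 16.9% of all symbols, and 2 in the rat (1 with rats 17 to 24 only). Among the former, *PAX2*, a nephron progenitor factor (log2 difference -1.20 ± 0.08, adjusted p = 0.0336), was not called without mouse 1, 4 or 7, without rat 17, 21, 23 or 31 (adjusted p = 0.0537 to 0.114 by limma), or with rats 25 to 32 only (0.105). *ESRRB*, an oestrogen-related receptor, was at 0.843, 0.948, 0.936 and 1.17 in the mice and 0.124 to 0.24 (median 0.176) in the rats (log2 difference -2.45 ± 0.16, adjusted p = 7.11e-07). *HNF4G*, the paralogue of *HNF4A*, was higher in the rat, at 0.156 ± 0.0163 against 0.494 ± 0.122 (log2 difference 1.63 ± 0.16, adjusted p = 0.00369). Of 20 clock genes, 4 were higher in the mouse and 1 in the rat, and 2 were higher in the mouse without mouse 4 or without mouse 7. *NPAS2*, a partner of *BMAL1*, was at 0.0285, 0.0233, 0.0119 and 0.0192 in the mice and 0.163 to 0.536 (median 0.234) in the rats (log2 difference 3.70 ± 0.31, adjusted p = 1.86e-06). *HLF*, a clock output factor, was at 3.14, 2.65, 2.7 and 2.52 against 0.185 to 0.477 (median 0.366) (log2 difference -3.00 ± 0.20, adjusted p = 3.18e-07), with no overlap for either. Among 22 injury genes, *SPP1*, osteopontin, was higher in the mouse at 31.5, 38.4, 24.9 and 32.2 against 3.53 to 6.93 (median 4.17) (log2 difference -2.86 ± 0.16, adjusted p = 5.09e-08). *ANXA1*, annexin A1, was higher in the rat at 0.309 ± 0.0346 against 2.01 ± 0.476 (log2 difference 2.68 ± 0.16, adjusted p = 2.22e-07). In the cell cycle list 4 of 24 were higher in the rat and 2 in the mouse (1 without mouse 2 or mouse 7), and with rats 17 to 24 only 2 and 1. Of these *BUB1*, a spindle checkpoint kinase, was at 0.00605 ± 0.00268 and 0.0465 ± 0.00628 (log2 difference 3.09 ± 0.29, adjusted p = 1.28e-05).

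The mitochondrially encoded genes had the highest share of calls in the rat's direction of the lists tested, 7 of 12, with a median of 1.53. They took 10.9% ± 1.33 of the shared reads in the mice (SD, n = 4) and 20.9% ± 1.53 in the rats (n = 8), a difference of 9.95 percentage points with p = 0.00404 by the exact permutation test (two-sided), the smallest value that 4 against 8 allows. Much of this difference lay in *MT-ATP6*, *MT-ATP8*, *MT-CO3*, *MT-ND3* and *MT-ND4L*, subunits of the ATP synthase, of cytochrome oxidase and of complex I, which together held 0.00268% of the shared reads in the mice and 5.27% in the rats. *MT-CO3* was at 0.102, 0.0905, 0.143 and 0.153 in the mice and 458 to 646 (median 532) in the rats (log2 difference 12.14 ± 0.14, adjusted p = 5.49e-17). For *MT-ND1*, *MT-ND2*, *MT-ND5*, *MT-ND6* and *MT-CYB* together the shares were 5.99% ± 0.709 and 5.89% ± 0.401, a difference of -0.101 points (exact permutation p = 0.739), and with *MT-ATP8* added the difference was -0.0654 points (exact permutation p = 0.812). Within that set *MT-ND6* was higher in the rat (log2 difference 1.76 ± 0.15, adjusted p = 0.000317) and *MT-ND5* at 239.9 ± 34.7 in the mice and 121 ± 16.4 in the rats. *MT-CO1*, the cytochrome oxidase subunit with the most reads in both species (4.01% ± 0.516 and 8.28% ± 0.598 of shared reads), was at 602, 695, 624 and 806 against 1368 to 1978 (median 1706) (log2 difference 1.31 ± 0.13, adjusted p = 0.0451). Its call was lost without mouse 1, 2 or 4 or rat 17, 25, 27, 29 or 31 (adjusted p = 0.0651 to 0.146 by limma), with rats 17 to 24 only (0.298) and under other scalings.

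These low mouse values coincide with a feature of the mouse genome. The mouse transcripts of *MT-ATP6*, *MT-CO3*, *MT-ND3* and *MT-ND4L* have near-identical copies on chromosome 1, annotated in GENCODE vM21 as unprocessed pseudogenes on the minus strand, and 99.5%, 99.9%, 97.6% and 98.5% of their windows of 100 bases occur in a transcript of another gene. *MT-CO1* and *MT-ND4* shared 30.8% and 60.8% of their windows, mostly with *Gm29216* and *Gm28439*, also on chromosome 1. Neither was among *MT-ND1*, *MT-ND2*, *MT-ND5*, *MT-ND6*, *MT-CYB* and *MT-ATP8*, whose joint shares are compared above. Over the aligned bases *mt-Atp6* and its copy *Gm10925* were identical at 678 of 678 positions, *mt-Co3* and *Gm28437* at 783 of 783, *mt-Nd4l* and *Gm10222* at 294 of 294, and *mt-Nd3* and *Gm28438* at 344 of 345, with the substitution T3C counted from 1 at the start of the transcript, the mitochondrial base first. The following windows are read from the transcripts of build GRCm38, each 5′ to 3′, because each is as long as a sequenced read. The first pair shows *mt-Atp6* (chrM:8217-8316, plus strand) and its copy (chr1:24614262-24614361, minus strand), which share every base. The second pair shows *mt-Nd3* (chrM:9459-9558, plus strand) and its copy (chr1:24613020-24613119, minus strand), and the capital marks the base that differs.
mt-Atp6: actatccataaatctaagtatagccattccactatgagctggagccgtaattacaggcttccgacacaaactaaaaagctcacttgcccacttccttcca
Gm10925: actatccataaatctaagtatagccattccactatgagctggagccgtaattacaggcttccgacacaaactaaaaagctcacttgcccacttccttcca
mt-Nd3: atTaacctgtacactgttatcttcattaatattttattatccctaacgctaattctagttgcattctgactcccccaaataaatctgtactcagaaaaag
Gm28438: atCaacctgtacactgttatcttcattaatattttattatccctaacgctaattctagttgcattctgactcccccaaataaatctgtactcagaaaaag
How reads that match several places were counted is not given in the sources used here. *MT-ATP8* had no window shared with another annotated transcript and was still at 0.0021, 0.00259, 0.00289 and 0.00248 in the mice and 5.89 to 9.06 (median 7.24) in the rats, and *mt-Atp8* overlaps *mt-Atp6* in the genome. The part of these copies in the species difference was not tested, and the same search could not be made in the rat.

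**Figure D4:**
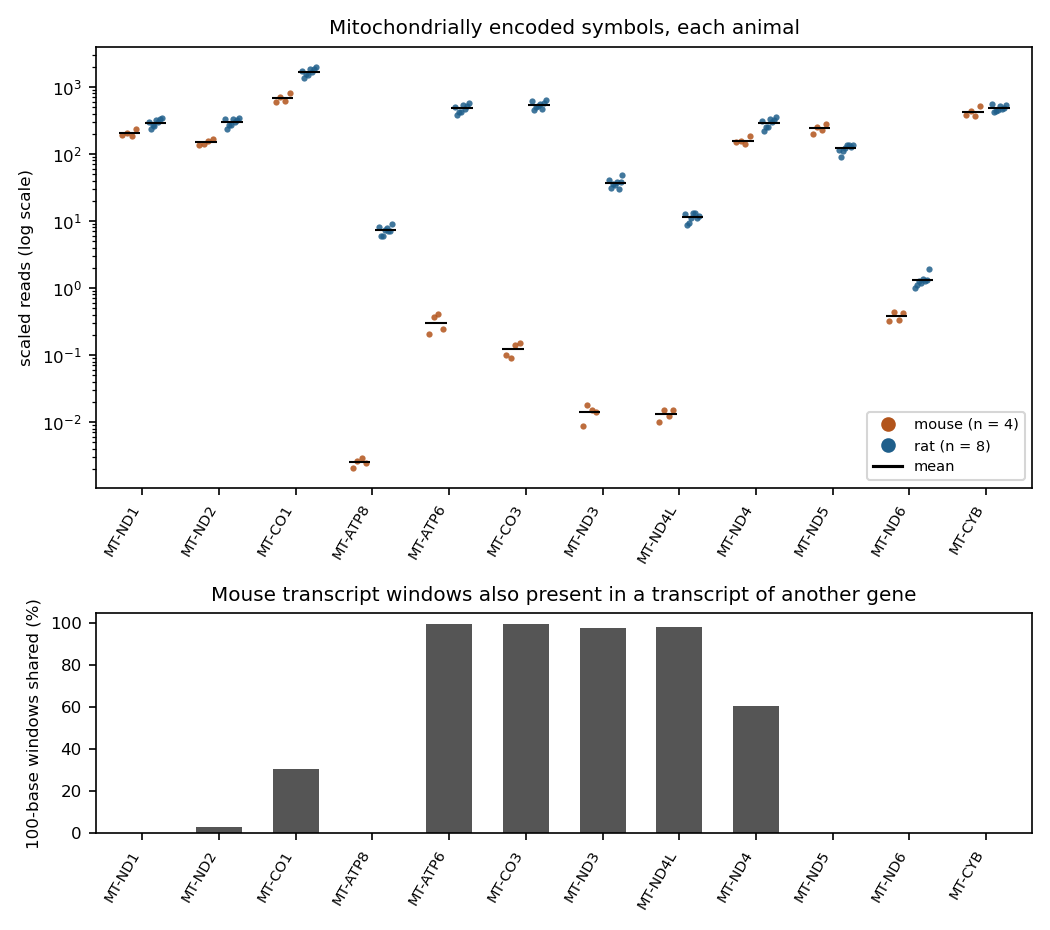
Upper panel, scaled reads (y axis, log scale) of 12 mitochondrially encoded symbols in each of 4 mice (orange) and 8 rats (blue), with group means as bars. Lower panel, percent of 100-base windows of the mouse transcript that occur in a transcript of another gene. *MT-ATP6*, *MT-CO3*, *MT-ND3* and *MT-ND4L* are low in the mice and share nearly all windows, while *MT-ATP8* is low and shares none.

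Genes used by every cell also fell to or near 0 in one table. *RPL7A*, a large ribosomal subunit protein, was at 10.4, 10.3, 9.03 and 9.01 in the mice and was listed at 0 reads in every rat. *PPIA*, cyclophilin A, was at 10.2, 10.3, 9.1 and 10.7 in the mice and had 0 to 1 reads per library in the rats. *RPL24*, another ribosomal protein, went the other way, with 1 to 11 reads in the mice and 4.54 to 6.79 (median 5.88) scaled reads in the rats (log2 difference 11.25 ± 0.32, adjusted p = 2.35e-12). For this reason a symbol without reads is described here as listed at 0 reads and no fold is given for it. Of 56 tested cytosolic ribosomal protein genes, 21 were called higher in the mouse and 4 higher in the rat. In 27 of the 56 the values were not whole reads in some library, and among the other 29 the calls were 4 in the mouse's and 1 in the rat's direction. Across all tested symbols 4.34% were not whole, against 13.4% of those higher in the mouse and 6.50% of those higher in the rat. Windows were shared with another transcript at a rate of 50% or more for 1.24% of the 11078 symbols matched to a mouse gene, for 4.56% of those higher in the rat and for 1.08% of those higher in the mouse.

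**Figure D5:**
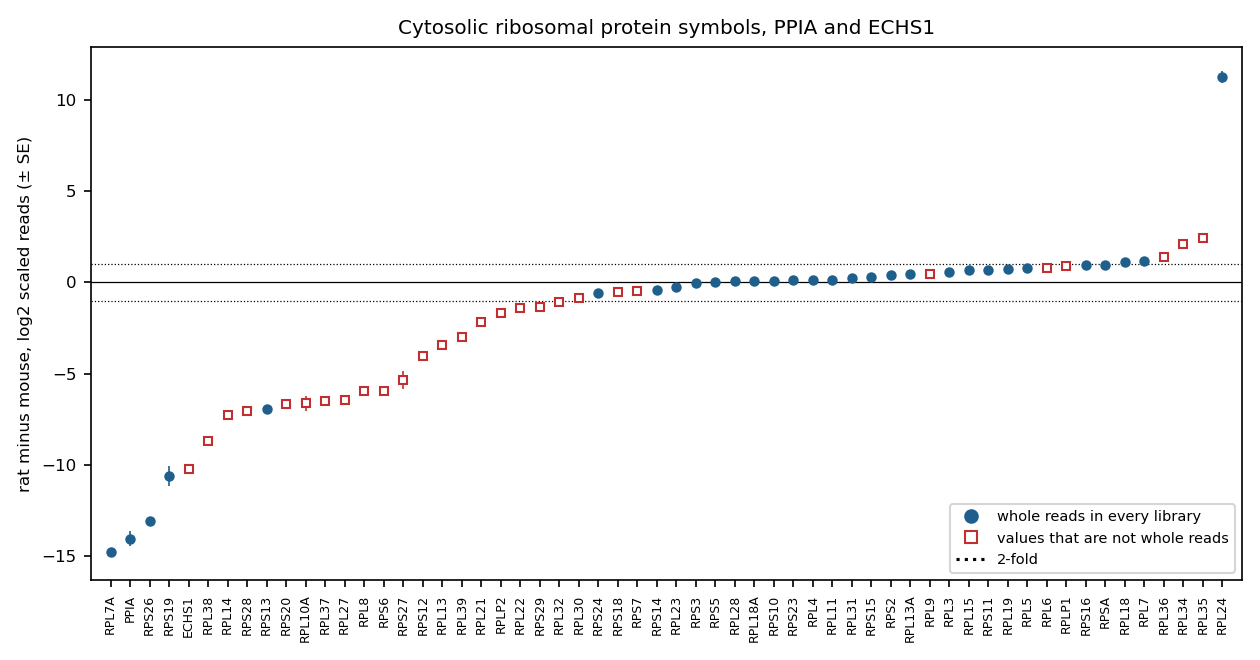
Difference between rat and mouse (y axis, log2 scaled reads, rat minus mouse, with the standard error) for tested cytosolic ribosomal protein genes and for *PPIA* and *ECHS1*, ordered by the difference. Filled circles had whole reads in every library and open squares did not, and dotted lines mark 2-fold. Of the 56 ribosomal members 28 lie within 2-fold, and *RPL7A*, *PPIA*, *RPS26*, *RPS19* and *ECHS1* lie over 10 log2 units below 0.

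The same limit touches the largest differences. Of the symbols called higher in the rat, 88 had no read in any mouse and 219 (13.4%) had at most 3 in every mouse, and of those higher in the mouse, 113 had no read in any rat and 269 (13.5%) at most 3. The symbols with no mouse read and the highest rat values were *HLA-DRA*, *C5*, *ENTPD4*, *ADPRHL1*, *TOMM6* and *MYOZ3*. *ENTPD4*, a nucleotidase of Golgi and lysosome, was at 2.36 ± 0.0838 in the rats, and *TOMM6*, a small subunit of the mitochondrial import pore, at 2.01 ± 0.189. Those with no rat read and the highest mouse values were *RPL7A*, *IDH3G*, *RPL26*, *HABP2*, *CDA* and *DUSP11*. *IDH3G*, a subunit of the citric acid cycle's isocitrate dehydrogenase, was at 6.63 ± 0.638 in the mice, and *CDA*, cytidine deaminase, at 3.61 ± 0.631.

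Among called symbols with a mean of at least 1 scaled read in the higher species, at least 1 read in every library, whole values and no overlap, the largest differences toward the rat were those of *MT-CO3*, *UQCRH*, *MT-ATP8*, *MT-ND3*, *RPL24*, *PALM2AKAP2*, *VPS25* and *MT-ND4L*, 4 of them mitochondrially encoded. *UQCRH*, the hinge subunit of complex III, was at 0.00143 ± 0.000843 in the mice and 5.34 ± 0.76 in the rats (log2 difference 12.04 ± 0.26, adjusted p = 4.57e-14). Its mouse mean lay below 0.00205, a level of about 3 reads. *VPS25*, a subunit of the endosomal sorting complex ESCRT-II, was at 0.0063, 0.00673, 0.00674 and 0.00203 in the mice and 4.95 to 6.5 (median 5.75) in the rats (log2 difference 10.21 ± 0.26, adjusted p = 4.9e-13). Toward the mouse they were *ADH5*, *FUT9*, *NDUFA3*, *PIPOX*, *ATP4A*, *B4GALNT3*, *HDC* and *GUCA2B*. *ATP4A*, the catalytic subunit of the gastric proton pump, was at 2.12, 2.49, 1.84 and 1.87 in the mice and 0.00267 to 0.0113 (median 0.00431) in the rats (log2 difference -8.63 ± 0.35, adjusted p = 3.01e-11). *HDC*, which makes histamine, was at 0.695, 0.884, 1.45 and 2.25 against 0.00191 to 0.0113 (median 0.00316) (log2 difference -8.36 ± 0.44, adjusted p = 8.17e-10), and *GUCA2B*, the natriuretic peptide uroguanylin, was at 5.65, 3.91, 5.41 and 4.49 against 0.0107 to 0.0466 (median 0.021) (log2 difference -7.70 ± 0.33, adjusted p = 1.27e-10). *FUT9*, a fucosyltransferase, was at 5.97 ± 0.969 and 0.00856 ± 0.00221 (log2 difference -9.48 ± 0.21, adjusted p = 2.9e-14). *ADH5*, the formaldehyde-clearing alcohol dehydrogenase that every cell uses, was at 3.79 ± 0.117 in the mice and 0.00322 ± 0.00205 in the rats. The limit described for genes used by every cell that fall near 0 in one table holds for such symbols too. Whether their low values reflect expression was not tested.

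The 8 wild-type rats themselves differed by number range in many genes, and the comparison was repeated with each range. With rats 17 to 24 and with rats 25 to 32 against the same 4 mice, 3280 calls (90.3% of the 3631) were made in the same direction, 323 only with the first and 412 only with the second, and 0 in opposite directions. These 2 repeats share the mice. Of the 2484 symbols without overlap between ranges, 273 (2.31% of those tested) were also over 2-fold apart, 152 higher in rats 25 to 32 and 121 higher in rats 17 to 24. The genes named here were chosen after their values were seen. *ADH6*, an alcohol dehydrogenase, was at 1.17 to 3.49 in rats 17 to 24 and 0.00737 to 0.0307 in rats 25 to 32. *OAT*, ornithine aminotransferase, was at 26.6 to 84.1 and 7.18 to 8.91, with the mice at 11.4, 11.5, 9.07 and 12.3, so that the first range lay above the mice and the second below. *RGN*, regucalcin, went the other way at 0.239 to 0.486 and 2.15 to 3.25, and *SLC51B*, a subunit of the basolateral bile acid and steroid exporter, at 0.0718 to 0.12 and 0.697 to 1.13, with the mice at 0.756, 0.581, 0.714 and 0.667. For such genes the species difference depends on which rats are set against the mice.

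The comparison was also made in the *Ctns* KO animals, 4 mice and 8 rats that did not enter the fit above. Of the 3631 wild-type calls, 3148 (86.7%) were called in the same direction there, 0 in the opposite direction, 5 had the opposite sign without a call, and 42 were not tested. The knockouts belong to the same sets of libraries, annotation and symbols as the wild types. Differences that lie in these sets would recur, so the repeat does not separate species from them. Examples with their log2 difference in wild types and then in knockouts were the hydroxyacid oxidase *HAO2* at 3.90 and 3.47, the peptidase *XPNPEP2* at 4.26 and 3.58, the cathepsin *CTSC* at 3.72 and 3.56, and the efflux pump *ABCC2* at -3.76 and -3.01.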

How the data were processed

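RNA of 24 kidneys was sequenced by the authors as stranded mRNA libraries with paired reads, and the 12 wild-type libraries were compared here. The submitters' processing notes name bcl2fastq 2.20, STAR 2.7.3, DESeq2 1.24.0, R 3.6.1 and the builds mm10 and rn5, without roles, and the counting is not given in the sources used here. For the mouse the authors deposited a signal per symbol, (reads + 0.5)/(75th percentile + 0.5), from which whole reads were recovered for 99.0% of wild-type values (tolerance 0.01). The rat table, as deposited, holds expected counts with 1/6 added to each entry, and taking this off left whole numbers for 98.1%. The design planned a fit on log2 scaled values, and both species were scaled in that way over the shared symbols.

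Differences were tested with limma 3.58.1 in R 4.3.3 (treat with trend and robust options, 2-fold, adjusted p under 0.05). The share of mitochondrial reads was tested with an exact permutation test in scipy 1.17.1. Symbols with 10 reads in 4 of 12 libraries entered, no covariate was used, and no library was dropped. No pair of replicates was alike within counting noise (chi-square over degrees of freedom of at least 11.8). Labels do not state separate litters, so p-values measure the spread between these animals. Depth is given with the results and covers counting error only. Alternatives were 3 other scalings, pseudocounts, filters, edgeR 4.0.16, DESeq2 1.42.0, limma-voom, thinning, and leaving out animals or rat ranges. Added after the data were seen were fits and shares without symbols whose mouse windows of 100 bases are shared. On reads simulated for this comparison over 11822 symbols, the test recovered 98% of 100 symbols changed 4-fold and 100% of 100 changed 8-fold, with 0 false calls. The other symbols were simulated at equal levels in both species, whereas the test is against a 2-fold difference. The 0 false calls therefore do not measure the rate of false calls among the real ones. The changed symbols were not drawn from those with the lowest mean reads, and none was set to be absent in mouse or rat. The recovery does not cover such symbols.

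Named genes were *CTNS* and a list drawn up here around the study, up to 4 called members per list and direction and defining members near no difference, the 8 largest whole-read differences and the 6 symbols without reads in one species per direction, and the 5 with the most reads, with others named for context after their values were seen. Some genes that this rule gave are not reported here. The members, the 41 lists and the tests were chosen with earlier results of these data known. No sample was unassigned and knockouts entered the repeat only.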

Additional observations from a re-analysis of the deposited data

Results flagged for a closer look

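Samples far from the others of their group were looked for in 105 groups of values of named genes, and 9 were found, where chance gives about 1 in 20. Mouse 2 stood above the other mice for *SLC5A2* (18.4 scaled reads), *SLC34A1* (138) and *ADH5* (3.97), the first 2 being apical cotransporters of the early proximal tubule. Mouse 7 was low for *VPS25* (0.00203), a value that rests on few reads. Among the rats, rat 23 was apart for *PCNA* (1.08), the replication clamp, rat 17 for *CTSD* (19.9), cathepsin D, rat 27 for *RPL24* (4.54), rat 25 for *ADH5* (0.00802) and rat 29 for *HDC* (0.0113).

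Some symbols with many reads stood in one table alone and entered no comparison. In the mouse table *GPX3*, the plasma glutathione peroxidase made by proximal tubules, had a mean of 1103895 reads per library and *LRP2*, megalin, 136320. In the rat table *MTCO2P12*, a symbol named for a nuclear copy of the cytochrome oxidase subunit 2 gene, had a mean of 426656 reads and *CTSV*, a cathepsin, 110391. They had no entry in the table of the other species.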

How the results depend on the processing

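The counts of 1632 symbols higher in the rat and 1999 higher in the mouse became 757 and 1133 with a pseudocount of 0.1 on the scaled values, 198 and 275 with a pseudocount of 1, 653 and 764 with a mean of at least 0.1 in both species, and 4972 and 4703 without the 2-fold threshold (5075 and 4576 in the knockouts). The first 2 compress low values and the third removes symbols that are low in one species. Leaving out each animal gave 1567 to 1631 and 1922 to 2011. The other scalings, filters, tools, rat ranges and thinning stayed within 1.5 times, and other scalings moved the median of all symbols by at most -0.06. The difference in mitochondrial share was 9.55 to 10.6 points without each animal, 9.13 with rats 17 to 24, 10.8 with rats 25 to 32, -0.101 with *MT-ND1*, *MT-ND2*, *MT-ND5*, *MT-ND6* and *MT-CYB*, and -0.0654 with these and *MT-ATP8*, the 6 that share under 5% of mouse windows. For 58 genes (the list drawn up around the study and those named for size of difference, absence of reads or most reads) 1588 of 1620 values kept their direction and side of the threshold, 31 lost the call, 1 gained it (*AQP1*) and 0 reversed. Of 271 called genes, these and all called list members, 24 lost the call without some single animal and 28 with a rat range, 32 in all. A correction for transcript length was not run because rat exon lengths were not used here. No paired analysis was possible because the groups share no replicate numbers. Depth limits statements on symbols with few reads, which hold the largest fitted differences, and 4 mice limit the precision of each difference.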
